A study of Mus musculus with 34 samples.

Results

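Rsrp1, the CDC-like kinases Clk1 and Clk4, and the SR splicing factors Srsf1, Srsf2, Srsf3, Srsf5, Srsf6, Srsf7 and Tra2a were followed in the left ventricle (LV) of mice after myocardial infarction (MI). The members were taken by gene symbol, and all 10 were found in both expression tables, among 14552 genes in a table of 10 libraries and 17406 genes in a table of 24 libraries. The set was chosen by measured values of these data, with the low level of Rsrp1 4 h post-MI in uninjected hearts among them. The members' values in the table of 10 libraries are therefore given as a description with no test. Members were tested only in the table of 24 libraries. Earlier results of these data were known when the set was chosen, so these tests may not be independent of that choice. All mice were CFW, an outbred Swiss stock whose age is not given in the sources used here, and infarction followed a lasting tie around the left anterior descending coronary artery. In the table of 10 libraries no heart was injected, with 3 control hearts (titled sham, with the stress label stating that no operation was done), 3 hearts 4 h post-MI and 4 hearts 24 h post-MI. In the table of 24 libraries (the modRNA experiment), chemically modified mRNA (modRNA) was injected into the border zone of the infarct right after ligation. This modRNA either encoded luciferase, a reporter enzyme from insects (Luc), or was the one that the labels name only as AC. There were 2 sham-operated hearts with no injection, both labelled 4 h, 4 Luc and 4 AC hearts at 4 h, 3 Luc and 3 AC hearts at 24 h, and 4 Luc and 4 AC hearts at 48 h post-MI. The sham hearts thus differed from every Luc heart in both the ligation and the injection, which cannot be told apart. No sham heart was labelled 24 or 48 h. The sham titles are numbered in the same series as the 4 h titles. The 24 h titles carry no such number, and the 48 h series starts anew. All 24 h titles of this experiment hold the letters Br, which no other title in either experiment holds and whose meaning the titles do not give. Luc hearts at 24 and 48 h thus also differed from sham in time and library numbering, which cannot be told apart. Those at 24 h differed from sham in the letters Br as well.

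SR proteins carry RNA recognition motifs and a tail rich in alternating arginine and serine residues, bind short enhancer sequences in exons and help the spliceosome choose splice sites. The Clk kinases sit in the nucleus and phosphorylate that tail, which releases SR proteins from nuclear speckles, and transcripts of Clk1, Clk4 and many SR genes exist in forms with a retained intron or an exon that carries a stop codon, through which their own levels are tuned. Tra2a is a splicing activator related to SR proteins, and Rsrp1 encodes a small arginine- and serine-rich protein whose role is little described. A gene-level value adds all such forms together, so the values below do not tell a coding form from a form with a retained intron.

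On the mm10 build, in which the tables give positions, Rsrp1 spans chr4:134923625-134927370 on the plus strand, Clk4 chr11:51263114-51281770 on the plus strand, Srsf5 chr12:80945499-80950506 on the plus strand, Srsf7 chr17:80200080-80207305 on the minus strand and Tra2a chr6:49243921-49264052 on the minus strand. RefSeq promoter windows of the same build (GRCm38.p6) were matched for 9 of the 10 members, and 7 motifs were searched on both strands of the 250 bases before each start site. The hexamer TGACGT, the core of the cAMP response element, was present in 5 of the 9 member promoters (Rsrp1, Clk4, Srsf3, Srsf6 and Tra2a), compared with 6.47% of 32851 mouse promoters. These stretches of 30 bases are printed because they show what the promoters share with each other. Capitals mark TGACGT or its reverse complement ACGTCA, and each stretch is read 5′ to 3′ on the strand of its gene.

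Rsrp1, chr4:134923594-134923623, plus strand: tattttcgatgcTGACGTcgccactaagct

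Clk4, chr11:51263037-51263066, plus strand: ccccgccgtcccTGACGTcacagacccctc

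Srsf3, chr17:29032566-29032595, plus strand: tttgtagcgcttACGTCAcagcctgcgccg

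Srsf6, chr2:162931446-162931475, plus strand: tgctgcgcgacgACGTCAcgcgctgcgccg

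Tra2a, chr6:49264062-49264091, minus strand: aggtccgcccctTGACGTcaggcgccgggg

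The printed match began 19 bases before the start site in Rsrp1, 27 bases before it in Tra2a, 50 in Srsf6, 65 in Clk4 and 82 in Srsf3. Tra2a held another, separate match, ACGTCA, beginning 49 bases before its start site. The full palindrome TGACGTCA, which holds the hexamer, was present in Clk4 and Tra2a (2 of 9, compared with 1.55% of all promoters). CCAAT was found in 4 of 9 (Rsrp1, Srsf2, Srsf3 and Tra2a, against 33.8%), TATAAA in 2 of 9 (Srsf2 and Srsf3, against 12.4%) and the ETS core CCGGAAG in 2 of 9 (Srsf5 and Srsf7, against 6.91%). The E-box CACGTG and the heat shock core GAANNTTC had 0 matches in the 9 windows, against 6.02% and 6.69%. A match is only a match of letters, and binding was not measured here.

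Levels are in CPM, read counts scaled to the size of each library, which do not correct for gene length, so values are compared between samples of one gene and not between genes. Every member was well detected, with 17.0 to 135 CPM in the uninjected libraries and 14.4 to 342 CPM in the modRNA experiment, and all 10 passed the filter on low values in both tables. In the modRNA experiment 3 libraries were taken as standing apart from their groups over all genes, a choice made after the data were seen. AC 24 h library c correlated with libraries a and d at r of 0.958 to 0.963, while a and d correlated at 0.981. Luc 48 h libraries 1 and 3 correlated with each other at 0.984 and with libraries 2 and 4 at only 0.945 to 0.969. Libraries 2 and 4 also correlated with each other at 0.984. The group was thus split into 2 pairs, and these values do not say which pair stands apart. Pairs within the 4 h groups ran from 0.940 (AC 4 h libraries 1 and 2) to 0.996, so such low values were not limited to the 3 libraries. The values of the 3 libraries are given with each result they touch. Summed cardiomyocyte markers (6 genes) had a median of 39944 CPM in uninjected controls, 39850 CPM 4 h post-MI and 22818 CPM 24 h post-MI. In the modRNA experiment the same sum was 44137 CPM in sham, 55557 CPM in Luc 24 h, 31617 CPM in Luc 48 h and 26305 CPM in AC 48 h. Summed neutrophil and monocyte markers (7 genes) had medians of 56.0, 88.5 and 1364 CPM in the uninjected control, 4 h and 24 h groups, and of 110, 125, 295 and 401 CPM in sham, Luc 24 h, Luc 48 h and AC 48 h. In bulk tissue, fewer cells of a type and less RNA per cell cannot be told apart, and the part of such shifts in the member values was not tested.

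Rsrp1 was the member farthest below control at 4 h in the uninjected hearts, the value for which the set was chosen. Its level was 102, 74.2 and 66.0 CPM in the 3 control hearts, 28.5, 28.7 and 28.9 CPM in the 3 hearts 4 h post-MI, and 77.1, 44.0, 48.7 and 55.1 CPM in the 4 hearts 24 h post-MI. All 4 h hearts lay far below every control, with an SD of only 0.207 CPM, whereas the 24 h hearts fell between the other groups and overlapped the controls. The means were 80.7 ± 18.8 (SD, n = 3), 28.7 ± 0.207 (n = 3) and 56.2 ± 14.7 CPM (n = 4), so that the 4 h level was 0.356 ± 0.083 and the 24 h level 0.697 ± 0.244 of control (ratio with the propagated SD).

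The kinases behaved otherwise. Clk1 was 44.7, 47.4 and 40.7 CPM in controls, 32.9, 46.9 and 30.9 CPM at 4 h, and 58.4, 51.0, 38.1 and 48.7 CPM at 24 h, and all 3 groups overlapped. Clk4 was 19.2, 17.5 and 17.0 CPM in controls, 18.9, 20.0 and 17.8 CPM at 4 h, and 27.5, 32.8, 21.3 and 24.7 CPM at 24 h. Every 24 h heart had more Clk4 than every control (ratio 1.48 ± 0.287), while the 4 h and control hearts overlapped.

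Among the SR proteins, Srsf1, a founding member of the family that also acts in translation, was the only other member whose 4 h hearts were all below control. It measured 78.0, 79.7 and 78.5 CPM in controls, 57.6, 61.2 and 61.9 CPM at 4 h, and 115, 101, 128 and 128 CPM at 24 h. The groups were fully separated, with the 4 h hearts lowest and the 24 h hearts highest (ratios to control of 0.765 ± 0.030 and 1.50 ± 0.165). Srsf5 moved opposite to Rsrp1 at 4 h, at 56.0, 62.7 and 81.8 CPM in controls and 117, 115 and 95.3 CPM 4 h post-MI (ratio 1.64 ± 0.375), every 4 h heart being above every control. At 24 h it spread from 34.9 to 117 CPM, with hearts on both sides of the controls.

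Srsf3 and Srsf7, which also serve as adaptors for mRNA export, were the members with the highest 24 h ratios. Srsf3 was 62.2, 68.1 and 53.5 CPM in controls, 64.0, 71.5 and 74.2 CPM at 4 h, and 135, 123, 106 and 122 CPM at 24 h. Srsf7 was 34.1, 30.7 and 26.9 CPM in controls, 24.1, 30.8 and 25.5 CPM at 4 h, and 66.0, 55.9, 51.1 and 63.2 CPM at 24 h. Both overlapped control at 4 h and lay wholly above it at 24 h, at 1.98 ± 0.306 and 1.93 ± 0.320 of control. Srsf2 was 63.8 ± 4.38 CPM in controls, 54.5 ± 5.93 CPM at 4 h and 113 ± 16.1 CPM at 24 h, and Tra2a at 20.2 ± 2.08, 19.6 ± 0.44 and 29.7 ± 2.29 CPM, again with overlap at 4 h and none at 24 h. Srsf6 stayed between 54.6 and 82.6 CPM over all 10 hearts, with group means of 69.6 ± 4.21, 70.6 ± 7.50 and 73.7 ± 13.2 CPM.

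At 4 h, 1 member (Srsf5) was higher and 2 (Rsrp1 and Srsf1) were lower than control in every heart, and 7 overlapped. Over the 12487 genes that averaged 1 CPM or more, 28.8% did not overlap in this comparison, and the rule that chose the set used it, so nothing is read from the count. At 24 h, 6 members (Clk4, Srsf1, Srsf2, Srsf3, Srsf7 and Tra2a) were higher than control in every heart, 0 were lower and 4 overlapped, against 64.0% of all genes that did not overlap in either direction and 35.3% that were higher without overlap.

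**Figure D1:**
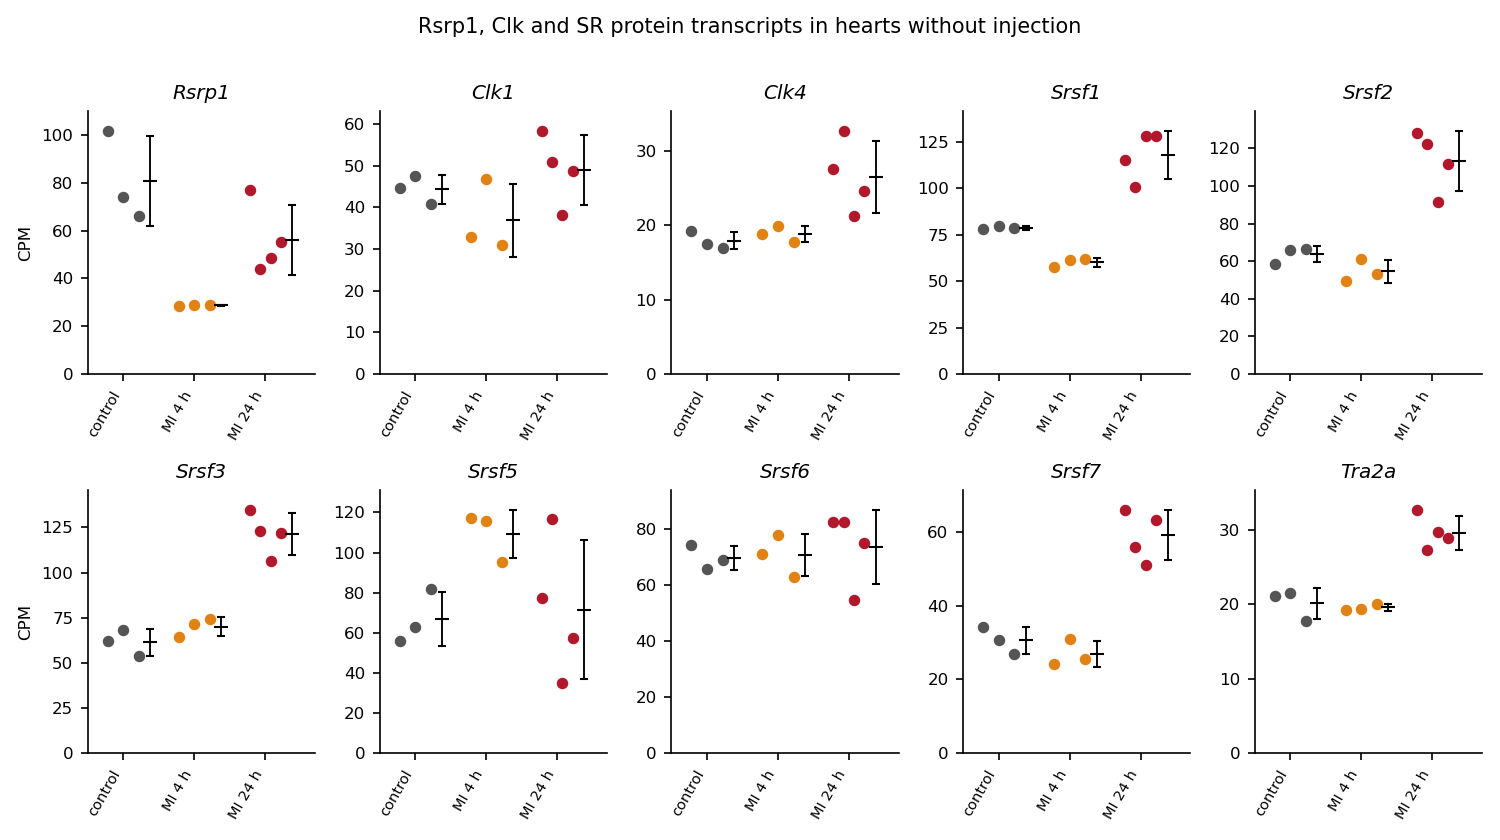
Level of each member in CPM (vertical axis of each panel) in the 10 uninjected libraries, by group (control, 4 h and 24 h post-MI), with a point for each heart and a bar for the mean ± SD. Rsrp1 sits at 28.5 to 28.9 CPM in all 3 hearts at 4 h, below every control, while Srsf1, Srsf2, Srsf3 and Srsf7 lie above every control at 24 h.

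Genes of the same machinery that were not members were tested in these hearts with limma on log2(CPM + 1), with q values (Benjamini-Hochberg) over all 12487 genes. These genes and the markers were chosen with earlier results of these data known, so their calls may not be independent of that choice. At 4 h, 0 of 98 such genes in 6 lists passed q below 0.05, with 12 at an unadjusted p below 0.05, while 2.37% of all genes passed. At 24 h, 53 of the 98 rose and 13 fell, against 66.0% of all genes that passed in either direction. Of 22 other SR and SR-like proteins, 12 rose, among them the Tra2a paralog Tra2b (log2 fold change 1.38, SE 0.13, q = 4.4e-06) and U2af1, which recognises the 3′ splice site (1.30), and 1 fell (Srrm2, −0.28). Of 9 kinases and carriers of SR proteins, 4 rose, including Srpk2 (0.74) and Clk3 (0.57), and 2 fell, including the muscle-enriched Srpk3 (−0.89). The hnRNP proteins, which often oppose SR proteins at exons, had 14 of 23 that rose, with Ptbp1 at 1.41, and 2 that fell. Core spliceosome genes had 22 of 29 that rose, led by Snrpa1 (1.73), and 4 that fell. Of 10 splicing regulators of muscle, 0 rose and 4 fell, with Rbfox1 at −2.11 and Rbm20 at −1.27. Among 5 nuclear-retained and cold-inducible transcripts, Rbm3 alone passed (2.22). In the same comparison all 7 neutrophil and monocyte markers rose, and 3 of 6 cardiomyocyte, 2 of 4 fibroblast and 2 of 4 endothelial markers fell. At 4 h, 4 of 5 erythroid markers rose.

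In the modRNA experiment, Luc hearts were compared with the 2 sham hearts at each time. These comparisons share the sham libraries, so they are not independent of each other. At 4 h, 0 of the 10 members passed q below 0.05 and 0 reached an unadjusted p below 0.05 (limma), while 1.55% of 12555 genes passed. Rsrp1 was 45.2 and 51.4 CPM in sham and 35.7, 48.2, 33.7 and 47.1 CPM in Luc 4 h. The groups overlapped, and the log2 fold change was −0.24 with an SE of 0.33 (q = 0.787). Srsf1 was 67.9 and 61.1 CPM in sham and 51.8, 50.3, 53.5 and 54.3 CPM in Luc 4 h, all 4 below both sham hearts, but it too did not pass. Srsf5, higher at 4 h in the uninjected hearts, was 115 and 125 CPM in sham and 125, 114, 119 and 115 CPM in Luc 4 h. The members' log2 fold changes spanned −0.35 to 0.18, and 3 of 10 did not overlap between the groups (Srsf7 higher, Srsf1 and Srsf2 lower), against 32.5% of all genes. Among the markers, 3 of 7 neutrophil and monocyte genes and 2 of 5 erythroid genes rose.

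At 24 h, 5 of the 10 members passed against sham, 4 that rose and 1 that fell, against 34.1% of all genes (25.3% that rose and 8.79% that fell). Srsf5 had the largest change, at 278, 289 and 338 CPM in Luc 24 h (115 and 125 CPM in sham), for a log2 fold change of 1.32 (SE 0.41, q = 0.0165). Srsf3 rose by 0.74 (SE 0.26, q = 0.0313), from 91.1 and 60.8 CPM in sham to 115, 131 and 129 CPM. Clk4 rose by 0.60 (SE 0.22, q = 0.034), to 27.5, 20.8 and 25.4 CPM from 14.9 and 16.6 CPM, and Srsf7 by 0.43 (SE 0.14, q = 0.0205), to 35.7, 40.3 and 38.4 CPM from 28.3 and 27.7 CPM. In all 4 genes every Luc heart lay above both sham hearts, and 8 of 10 members did not overlap (6 higher, 2 lower), against 55.9% of all genes. Srsf1 was the member that fell, to 55.7, 41.6 and 32.2 CPM (−0.60, SE 0.23, q = 0.0483), opposite in sign to its higher 24 h level in the uninjected hearts. The 2 experiments were normalized separately, the letters Br are in the Luc 24 h titles only, and this difference was not tested. Rsrp1, at 29.8, 34.8 and 26.7 CPM, was below both sham hearts in every library but did not pass (−0.65, SE 0.35, q = 0.151). It did pass when the 3 libraries that stand apart, none of which is in this comparison, were left out of the shared estimate of spread (−0.65, SE 0.19, q = 0.00883), an alternative chosen after the data were seen, and in a fit of only the groups compared (q = 0.0404), and in none of the other 8 settings of scaling, filter or model.

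The number of these calls depended on single libraries of both groups. With 1 sham library left out only 1 sham heart remained, so a loss of calls there follows in part from the smaller group. Without sham library 2 the count was 0 and without sham library 1 it was 1 (Srsf3), and the direction of the other 4 did not turn. Without Luc library A, Clk4 no longer passed, without library C, Srsf1, Srsf3 and Srsf7, and without library D, Clk4, Srsf1 and Srsf3. The scaling mattered too. The median log2 fold change of all genes was 0.16 (members 0.34), and 74.2% of all calls were rises, compared with 52.8% after rescaling by median ratios and 42.5% after scaling to equal totals. Under both rescalings only Srsf5 (1.12, q = 0.043 and 1.01, q = 0.0459) and Srsf1 (−0.79, q = 0.0113 and −0.91, q = 0.01) passed. The 6 other lists counted 26 rises and 5 falls among 98 genes, including Srsf4 (1.02, q = 0.000317) and Ptbp1 (1.29), which rose, and Luc7l3 (−0.90), the SR protein importer Tnpo3 (−0.79) and Rbfox1 (−1.63), which fell. Of the 5 nuclear-retained and cold-inducible transcripts, the RNA-binding proteins Cirbp (1.53, q = 0.0161) and Rbm3 (1.31) rose and the noncoding RNA Malat1 fell (−1.61). Among the markers, 5 of 7 neutrophil and monocyte genes, 3 of 4 fibroblast genes, 1 of 4 endothelial genes and 1 of 6 cardiomyocyte genes rose and 0 of 26 fell.

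At 48 h, only the 2 kinases passed against sham (2 of 10, against 30.1% of all genes). Clk1 was 30.9 and 35.5 CPM in sham and 51.5, 48.4, 49.9 and 46.4 CPM in Luc 48 h libraries 1 to 4, all above both sham hearts, and rose by 0.55 (SE 0.16, q = 0.0115). Clk4 was 30.4, 21.3, 31.5 and 19.4 CPM, and rose by 0.64 (SE 0.20, q = 0.0208). Its higher values were those of libraries 1 and 3, which stand apart, and without those 2 the Clk4 difference was 0.35 (q = 0.248) and that of Clk1 0.51 (q = 0.0604). Clk4 was also lost without sham library 2, Luc library 1 or Luc library 3 alone, and both were lost without sham library 1. Srsf1, at 95.4, 87.4, 95.7 and 87.0 CPM, was above both sham hearts in all 4 libraries but did not pass (0.50, q = 0.0921), and with Clk1 and Clk4 it made 3 of 10 members without overlap, against 40.8% of all genes. With the 3 libraries that stand apart left out, Rsrp1 (0.74, q = 0.0133) and Srsf7 (0.37, q = 0.0255) rose, Srsf5 fell (−0.65, q = 0.00246) and Clk1 still passed. The share of rises among all calls was 45.4%, 50.5% after median ratios and 66.1% after equal totals. The 98 genes of the 6 lists had 11 rises, among them Tra2b (0.78, q = 0.00123), and 10 falls, among them Rbfox1 (−2.26). Among the markers, 6 of 7 neutrophil and monocyte genes and 2 of 4 fibroblast genes rose, and 2 of 5 erythroid genes and 1 of 6 cardiomyocyte genes fell.

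**Figure D2:**
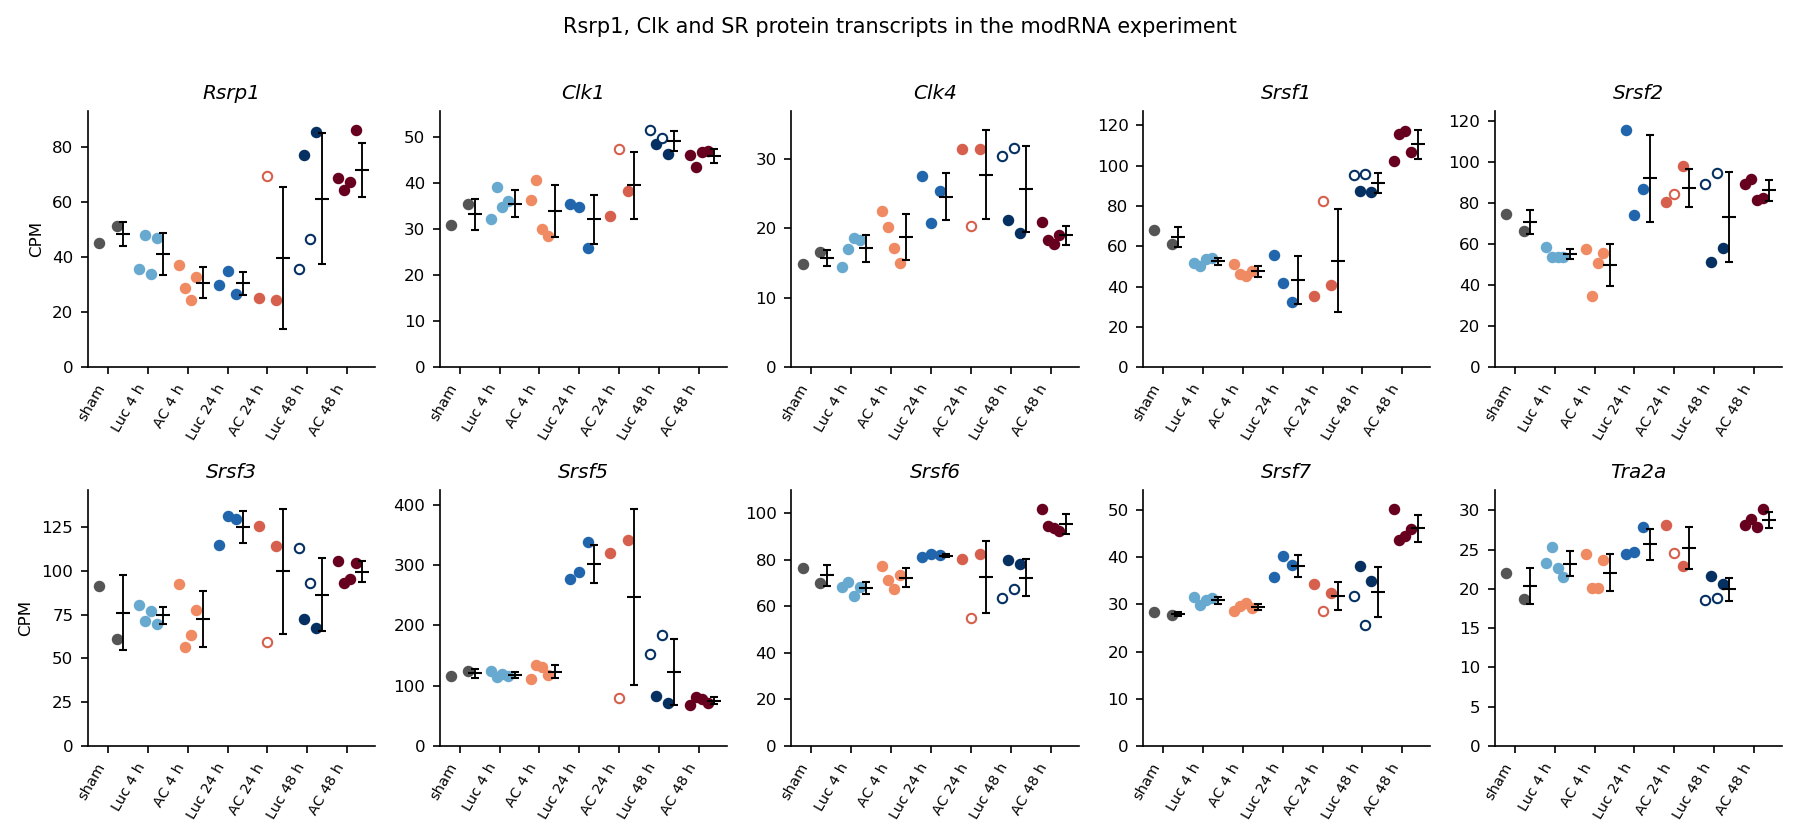
Level of each member in CPM (vertical axis of each panel) in the 24 libraries of the modRNA experiment, by group (sham, then Luc and AC at 4, 24 and 48 h post-MI), with a point for each heart, open points for the 3 libraries that stand apart, and a bar for the mean ± SD. Srsf5 reaches 278 to 342 CPM in 5 of the 6 hearts at 24 h, and the open AC 24 h point, at 79.0 CPM, lies far below them.

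Between times, the order of Rsrp1 group means from low to high was Luc 24 h (30.4 ± 4.07 CPM, n = 3), AC 4 h (30.8 ± 5.51, n = 4), AC 24 h (39.7 ± 25.8, n = 3), Luc 4 h (41.2 ± 7.53, n = 4), sham (48.3 ± 4.41, n = 2), Luc 48 h (61.2 ± 23.9, n = 4) and AC 48 h (71.7 ± 9.82 CPM, n = 4). No neighbours in this order were separated, since the libraries of each adjacent pair of groups overlapped. Library numbering in the labels differs between the 4, 24 and 48 h libraries, and only the 24 h titles hold the letters Br. Time therefore cannot be told apart from a separate library run or from what Br stands for.

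From 4 to 24 h, 4 members rose in Luc hearts and 0 fell (against 32.3% of all genes called), and 6 lay wholly above the 4 h hearts (against 48.4% without overlap). Srsf5 rose by 1.34 (SE 0.34, q = 0.00506), Srsf3 by 0.74 (SE 0.22, q = 0.0124), Srsf2, which contributes to both splicing and transcription, by 0.71 (SE 0.19, q = 0.00785) and Clk4 by 0.49 (SE 0.18, q = 0.0395). Srsf2 was 58.8, 54.0, 53.8 and 54.0 CPM in Luc 4 h and 116, 74.1 and 87.0 CPM in Luc 24 h, with no overlap. Clk4 was not called without Luc 24 h library A or D or Luc 4 h library 1, 2 or 4, and Srsf2 was not without library A. Without the 3 libraries that stand apart, Rsrp1 (−0.41, q = 0.0416) fell and Srsf6 (0.27, q = 0.02) and Srsf7 (0.29, q = 0.013) rose as well. The share of rises among all calls was 75.9%, 52.4% after median ratios and 48.2% after equal totals. Among the markers, 2 of 4 fibroblast genes and 1 of 6 cardiomyocyte genes rose, and 2 of 5 erythroid genes and 1 of 7 neutrophil and monocyte genes fell.

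In AC hearts over the same interval, Srsf2 rose by 0.82 (SE 0.19, q = 0.00565), from 57.7, 34.9, 50.9 and 55.8 CPM to 80.4, 84.4 and 98.1 CPM, and Clk4 rose by 0.53 (SE 0.18, q = 0.0423), against 18.7% of all genes called. Srsf2 alone of the 10 did not overlap, against 24.1% of all genes. Srsf5 was 111, 135, 131 and 118 CPM at 4 h and 320, 79.0 and 342 CPM at 24 h. The middle value is that of library c, and with it Srsf5 did not pass (0.73, SE 0.34, q = 0.133). Without the 3 libraries that stand apart Srsf5 rose by 1.42 (q = 2.71e-07) and Srsf3 by 0.75 (q = 0.00311). Leaving out library c alone gave the same 2 additional calls, and Clk4 was not called without library a or d or AC 4 h library 3 or 4. Rises made up 79.7% of all calls, 52.5% after median ratios and 72.5% after equal totals. All 5 erythroid markers fell over this interval (summed median 4607 CPM at 4 h and 208 CPM at 24 h), as did 1 of 7 neutrophil and monocyte markers, and 2 of 4 fibroblast markers rose.

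From 24 to 48 h, Rsrp1 and Srsf5 changed in opposite directions in both Luc and AC hearts. In Luc hearts Rsrp1 went from 29.8, 34.8 and 26.7 CPM to 35.8, 77.1, 46.5 and 85.5 CPM (0.91, SE 0.29, q = 0.0163), and Srsf5 from 278, 289 and 338 CPM to 152, 82.3, 184 and 70.9 CPM (−1.40, SE 0.34, q = 0.00275). The groups did not overlap for either gene, although the lowest Rsrp1 value at 48 h, library 1, was only just above the highest at 24 h. Libraries 1 and 3, which stand apart, were nearest to the 24 h hearts in both genes. Srsf1 rose by 1.10 (SE 0.19, q = 0.000202) and Clk1 by 0.61 (SE 0.14, q = 0.00181), while Srsf3 fell by 0.56 on the log2 scale (SE 0.22, q = 0.043) and Tra2a by 0.35 (SE 0.11, q = 0.0177). These were 6 of 10 members against 41.9% of all genes called, and 7 of 10 without overlap (3 higher, 4 lower) against 41.0%.

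The calls for Srsf1, Srsf5 and Clk1 were made whichever single library was left out. Rsrp1 was lost without Luc 24 h library D or Luc 48 h library 2 or 4, with log2 fold changes of 0.72 to 1.13 over all 7 omissions. Srsf3 was lost in 5 of the 7, without Luc 24 h library A, C or D or Luc 48 h library 2 or 4, and Tra2a without library D. Without the 3 libraries that stand apart Rsrp1 rose by 1.39 (q = 1.3e-05), Srsf5 fell by 1.96, Srsf2 fell by 0.72 (q = 0.00457) and Tra2a did not pass (q = 0.104). The median of all genes was −0.25 (members −0.21), and rises made up 22.3% of all calls, 49% after median ratios and 77.5% after equal totals, under which Tra2a turned to a difference of 0.11. Srsf3 and Tra2a were not called after either rescaling (Srsf3 −0.31, q = 0.276 after median ratios and −0.08, q = 0.75 after equal totals, Tra2a −0.11, q = 0.452 after median ratios), while Srsf1, Srsf5, Clk1 and Rsrp1 were called after both. Over the 6 lists 10 of 98 genes rose and 36 fell, including 16 of 29 core spliceosome genes, 0 of which rose. Luc7l3 (0.96) and Srsf10 (0.45) rose, and Thrap3 (−0.82), Srsf4 (−0.76), Clk2 (−0.45) and Cirbp (−1.70) fell. All 6 cardiomyocyte markers and all 5 erythroid markers fell over this interval, as did 2 of 4 fibroblast and 2 of 4 endothelial markers, and 5 of 7 neutrophil and monocyte markers and 1 of 4 fibroblast markers rose.

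In AC hearts from 24 to 48 h, Rsrp1 rose (log2 fold change 1.003, SE 0.29, q = 0.008), from 25.0, 69.5 and 24.5 CPM to 68.8, 64.4, 67.5 and 86.2 CPM. The groups overlapped only through library c, at 69.5 CPM. Srsf5 fell by 1.45 on the log2 scale (SE 0.34, q = 0.00172), from 320, 79.0 and 342 CPM to 68.4, 81.6, 77.8 and 71.5 CPM, and here too library c alone was in the 48 h range. Without the 3 libraries that stand apart the differences were 1.49 (q = 1.41e-06) and −2.13 (q = 3.19e-10). Srsf1 rose by 1.15 (SE 0.19, q = 6.73e-05), from 35.5, 82.3 and 40.7 CPM to 102, 116, 117 and 107 CPM, every 48 h heart being higher. Srsf7 rose by 0.52 (SE 0.12, q = 0.00105) and Srsf6 by 0.41 (SE 0.12, q = 0.0101), and Clk4 fell by 0.50 on the log2 scale (SE 0.18, q = 0.0284). In all, 6 of 10 members were called against 44.5% of all genes, and 3 of 10 did not overlap (all higher) against 48.6%. Rsrp1 and Clk4 were lost without AC 24 h library a or d, Clk4 also without AC 48 h library 2 or 4, and Srsf6 without library c. Rises were 42.6% of all calls, 48.3% after median ratios and 82% after equal totals, under which Srsf2 turned from −0.02 to a rise of 0.43 (q = 0.0248). All 6 cardiomyocyte markers also fell here, with 2 of 4 endothelial, 1 of 4 fibroblast and 1 of 7 neutrophil and monocyte markers, while 3 neutrophil and monocyte markers and 1 fibroblast marker rose.

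**Figure D3:**
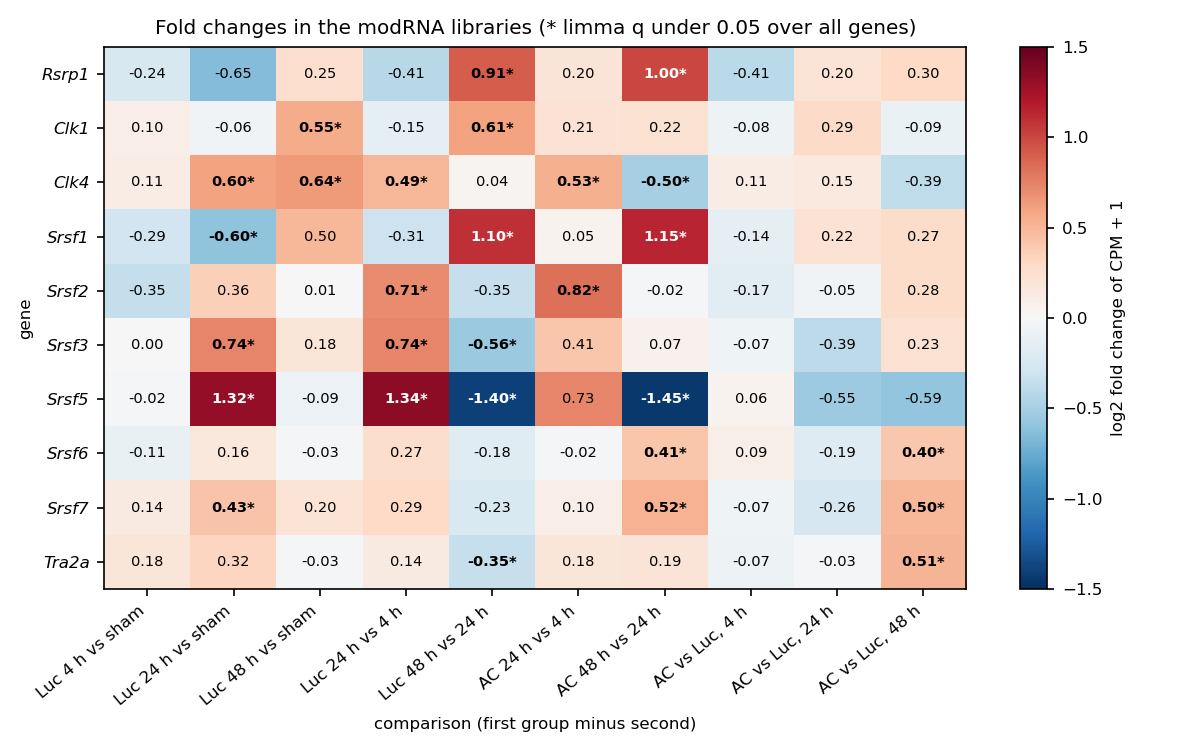
Fitted log2 fold changes of the 10 members (rows) in the comparisons of the modRNA experiment (columns), on a colour scale with 0 in the middle and an asterisk where q was below 0.05. Srsf5 has the strongest colours, positive in Luc hearts from 4 to 24 h and negative in Luc and AC hearts from 24 to 48 h. In AC hearts from 4 to 24 h Srsf5 is at 0.73 with no asterisk, below Srsf2 at 0.82. The columns of Luc against sham at 4 h and of AC against Luc at 4 and 24 h hold no asterisk.

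AC and Luc hearts were compared within each time. At 4 and at 48 h both groups came from the same numbered series of libraries, in which AC and Luc held separate stretches. The 24 h titles carry no such number. At 4 h, 0 of 10 members passed and 0 reached an unadjusted p below 0.05 (limma), with log2 differences from −0.41 to 0.11, 0 of 10 without overlap against 2.02% of all genes, and 0.00796% of all genes called. The largest was that of Rsrp1, at 37.2, 28.8, 24.3 and 32.8 CPM in AC and 35.7, 48.2, 33.7 and 47.1 CPM in Luc, which overlapped. At 24 h again 0 of 10 passed and 0 reached an unadjusted p below 0.05, against 0.00796% of all genes called. Differences ran from −0.55 to 0.29, and AC library c was the heart farthest from the others of its group in Rsrp1, Srsf1 and Srsf5, among others. Srsf7 was 34.4, 28.5 and 32.5 CPM in AC 24 h and 35.7, 40.3 and 38.4 CPM in Luc 24 h, the only member without overlap (1 of 10, against 9.33%), with a difference of −0.26 (SE 0.12, q = 0.991). Of the 98 other genes, 0 passed at either time, with 1 at an unadjusted p below 0.05 at 4 h and 4 at 24 h.

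At 48 h, 3 of the 10 members were higher in AC hearts and 0 were lower, against 15.3% of all genes called, and 4 lay wholly above Luc (Srsf1, Srsf6, Srsf7 and Tra2a), against 19.1% without overlap. Tra2a was 18.6, 21.7, 18.8 and 20.6 CPM in Luc libraries 1 to 4 and 28.1, 28.9, 27.9 and 30.1 CPM in AC, so that the lowest AC heart exceeded the highest Luc heart by more than the SD of either group (19.9 ± 1.47 and 28.7 ± 1.03 CPM). Tra2a was higher by 0.51 on the log2 scale (SE 0.11, q = 0.00268). Srsf7 was 31.8, 38.1, 25.6 and 35.1 CPM in Luc and 50.2, 43.6, 44.6 and 46.1 CPM in AC, and was higher by 0.50 (SE 0.11, q = 0.00391). Srsf6 was 63.4, 79.7, 67.5 and 78.2 CPM in Luc and 102, 94.5, 93.5 and 92.0 CPM in AC, and was higher by 0.40 (SE 0.12, q = 0.0216). In all 3 genes every AC heart was above every Luc heart.

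Tra2a and Srsf7 passed whichever single library was left out, with q values up to 0.0129 and 0.0227, while Srsf6 was lost without AC library 2 or Luc library 1 or 3, and Clk4 was added, as lower in AC, without Luc library 4. Luc libraries 1 and 3 weighed more together. Without both, 0 members passed and 4 had an unadjusted p below 0.05 (limma), with Tra2a at 0.43 (q = 0.0733), Srsf7 at 0.33 (q = 0.115), Srsf6 at 0.27 (q = 0.319) and Srsf2 at 0.65 (q = 0.0527). Without all 3 libraries that stand apart, only Srsf2 passed (0.65, q = 0.0457). The remaining Luc hearts, 2 and 4, lay below every AC heart in Tra2a, Srsf6, Srsf7 and Srsf1, which follows from the lack of overlap of the full groups. Rsrp1, at 35.8, 77.1, 46.5 and 85.5 CPM in Luc and 68.8, 64.4, 67.5 and 86.2 CPM in AC, overlapped (0.30, q = 0.481), as did Srsf5 (−0.59, q = 0.21). Libraries 1 and 3 were the lowest Luc hearts in Rsrp1 and the highest in Srsf5, and they were 77.4 and 74.2 CPM in Cirbp, compared with 16.0 and 18.0 CPM in libraries 2 and 4 and 13.0 to 21.3 CPM in AC. Their summed cardiomyocyte markers were 41562 and 33439 CPM, compared with 29794 and 29232 CPM, and 2 of 6 such markers were called lower in AC hearts. There, 2 of 4 fibroblast markers were called higher, and of 7 neutrophil and monocyte markers 2 were higher and 1 was lower. The part of these shifts in the member values was not tested.

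The median of all genes in this comparison was 0.14 (members 0.27), and rises made up 78.7% of all calls, 50.6% after median ratios and 83.3% after equal totals. After median ratios Tra2a (0.37, q = 0.0206) and Srsf7 (0.35, q = 0.0398) still passed, Srsf6 did not and Clk4 was lower (−0.53, q = 0.048). Of the 98 other genes, 6 were higher in AC hearts and 2 were lower. The kinase Srpk1 (0.57, q = 0.0265), Hnrnpm (0.57) and Ptbp1 (0.49) were higher, the muscle regulators Rbm24 (−0.77) and Rbpms (−0.60) were lower, and 0 of 29 core spliceosome genes passed (limma).

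The difference between the AC and Luc comparisons at 2 times was tested as an interaction. From 4 to 48 h it was above 0 for Tra2a (0.58, SE 0.15, q = 0.0322) and Srsf7 (0.56, SE 0.15, q = 0.0417), 2 of 10 members against 3.35% of all genes. From 24 to 48 h it was above 0 for Srsf7 (0.76, SE 0.17, q = 0.0159), 1 of 10 against 2.56%, with Srsf6 at 0.60 (q = 0.0734) and Tra2a at 0.54 (q = 0.0795). From 4 to 24 h 0 of 10 passed and 0 reached an unadjusted p below 0.05 (limma), against 0.00796% of all genes. Without Luc 48 h libraries 1 and 3 none of these calls was made, with Srsf7 at 0.39 (q = 0.241) and Tra2a at 0.50 (q = 0.188) from 4 to 48 h and Srsf7 at 0.58 (q = 0.0695) from 24 to 48 h. That omission removes the Luc 48 h hearts less like AC over all genes, so it cannot decide what the calls rest on. Leaving out single libraries, the call of Srsf7 from 24 to 48 h was made in 13 of 14 fits, while from 4 to 48 h that of Srsf7 was made in 2 of 16 and that of Tra2a in 6 of 16.

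In the modRNA experiment Rsrp1 and Srsf5 varied against each other between hearts of the same group, the strongest such correlation among all pairs of members. After each library's log2(CPM + 1) was taken as its deviation from its group mean, the correlation of the 2 genes was −0.90 over the 24 libraries of the modRNA experiment and −0.15 over the 10 uninjected libraries. Without the 3 libraries that stand apart it was −0.61 over 21 libraries, and without the whole AC 24 h and Luc 48 h groups −0.62 over 17. These are descriptions, since the points share libraries and their scaling. In AC 24 h library c Rsrp1 was 69.5 CPM and Srsf5 79.0 CPM, compared with 25.0 and 24.5 CPM and with 320 and 342 CPM in the other 2 hearts. In the same library Cirbp was 47.9 CPM, compared with 91.3 and 115 CPM, and the summed neutrophil and monocyte markers were 397 CPM, compared with 110 and 120 CPM. Clk4 and Srsf3 deviated with Srsf5, at 0.71 and 0.70 over the 24 libraries. Srsf1 deviated against Srsf5 in both experiments, at −0.64 over the 24 libraries and −0.85 over the 10 uninjected libraries.

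**Figure D4:**
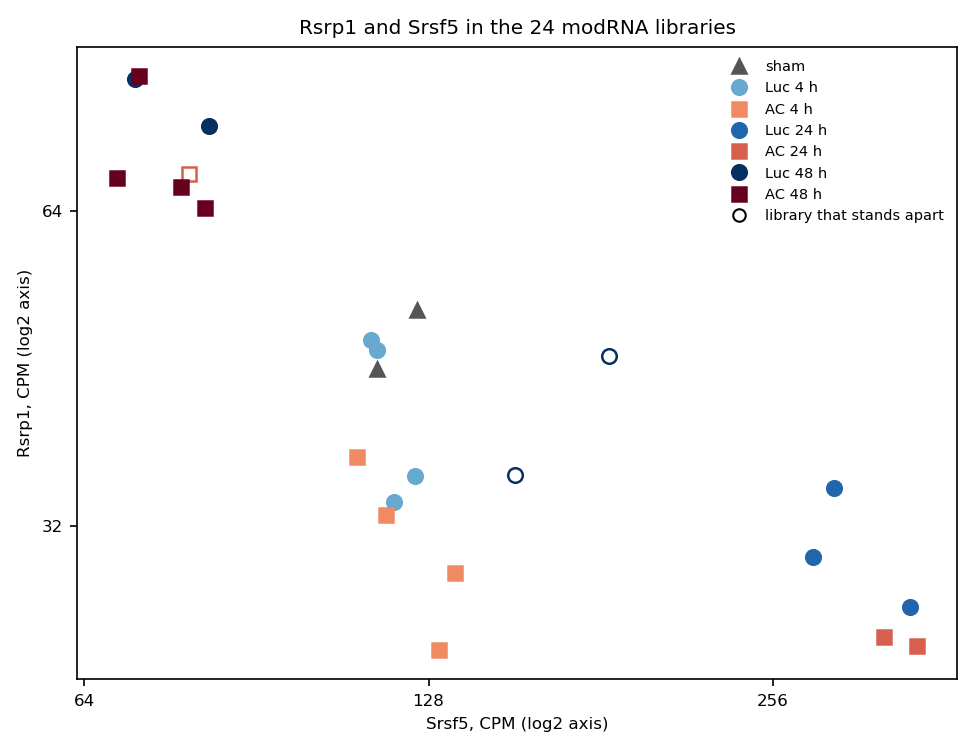
Rsrp1 (vertical axis) against Srsf5 (horizontal axis), both in CPM on log2 axes, in the 24 libraries of the modRNA experiment, with triangles for sham, circles for Luc and squares for AC hearts, colours for the times and open symbols for the 3 libraries that stand apart. The hearts run from high Rsrp1 and low Srsf5 at 48 h (86.2 and 71.5 CPM in one AC heart) to low Rsrp1 and high Srsf5 at 24 h (24.5 and 342 CPM), and the open AC 24 h symbol lies among the 48 h hearts.

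Over all libraries of each experiment, the members' log2(CPM + 1) correlated with that of Rsrp1 from −0.57 (Srsf5) to 0.56 (Clk1) over the 10 uninjected libraries, and from −0.81 (Srsf5) to 0.83 (Srsf1) over the 24 libraries of the modRNA experiment. Among 7350 genes listed in both tables at a sufficient level, the 5 with the highest mean of both correlations with Rsrp1 were Ogt (0.85 and 0.82), the noncoding RNA Tug1 (0.94 and 0.72), Exoc8 (0.81 and 0.85), the RNA helicase Ddx17 (0.82 and 0.84) and Ttc14 (0.80 and 0.85). These values describe likeness over 10 and 24 libraries that share groups and scaling, and no test was made of them.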

How the data were processed

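RNA from LV tissue was sequenced from TruSeq Stranded mRNA libraries. The deposited values are CPM, with gene symbols and mm10 positions. For the 10 libraries, the study's methods say that the authors aligned reads with STAR, quantified them with Partek against RefSeq and normalized by TMM. For the 24 libraries the aligner, counter and normalization are not given in the sources used here, and whether counting used strand is not stated for either table. The lowest value of every library in the second table was 1, which was taken as an added 1 and subtracted. The tables were normalized separately and were not tested against each other.

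Deposited CPM sums were 568058 to 662286 and 508204 to 818456 per library. Among values under 1 CPM, 1 read was worth 0.0313 to 0.0479 CPM in the first table and 0.0241 to 0.0420 CPM in the second, but only 81.7 to 84.0% and 83.3 to 86.2% of values were whole reads within 0.02, so no count test was run. The lowest member value stood for about 405 reads in the first table and 410 in the second.

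Genes that averaged 1 CPM or more (12487 of 14552, and 12555 of 17406) were fitted with limma 3.58.1 (R 4.3.3) on log2(CPM + 1) with a mean-variance trend, all 24 libraries in 1 fit, and q values (Benjamini-Hochberg) over all genes tested, with a threshold of 0.05. Fold changes are on that scale, which understates changes of low genes. Members in the first table were not tested, and limma was used there for other genes only. Ratios carry a propagated SD. In the first table each library was made from a separate heart, per the study. For the 24 libraries the labels do not say whether libraries of a group came from separate mice, each is written here as 1 heart, and p-values measure only the spread between these samples, which may be technical.

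The members, the 6 lists (other SR and SR-like proteins, SR kinases and carriers, hnRNP proteins, spliceosome core, muscle splicing regulators, nuclear-retained and cold-inducible transcripts) and the markers were chosen with earlier results of these data known. From each list, at most 2 rises and 2 falls with the largest log2 fold change among called genes of at least 10 CPM could be named, and the 5 genes most like Rsrp1 by the mean of both Pearson correlations. Alternatives were another pseudocount, other filters, no trend, array weights, other scalings, fits of only the groups compared, a block on label numbers and omission of libraries. Median-ratio rescaling and equal totals were applied to the deposited CPM.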

Additional observations from a re-analysis of the deposited data

Results flagged for a closer look

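Luc 4 h library 1 was far from the other 3 hearts of its group in Srsf2, at 58.8 CPM compared with 53.8 to 54.0 CPM, by Dixon's 95% criterion. Among 50 combinations of a member and a group of 4 it was the 1 found, and chance gives about 1 in 20.

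The difference between AC and Luc hearts was larger at 48 h than at 4 h by 0.56 on the log2 scale for Srsf7 (q = 0.0417) and by 0.58 for Tra2a (q = 0.0322), and larger at 48 h than at 24 h by 0.76 for Srsf7 (q = 0.0159), each by the interaction test in limma. Luc 48 h libraries 1 and 3 had the lowest values of Tra2a among Luc 48 h hearts (18.6 and 18.8 CPM) and of Srsf7 (31.8 and 25.6 CPM). Without those libraries the same differences were 0.39 (q = 0.241), 0.50 (q = 0.188) and 0.58 (q = 0.0695). Those libraries were also the Luc 48 h hearts less like AC over all genes, so this omission cannot decide what the calls rest on.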

How the results depend on the processing

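Of 2560 log2 fold changes of single members in the modRNA experiment under an alternative, 2241 kept their sign and their side of the threshold, 139 kept their sign but no longer passed and 46 kept it and came to pass. In 132 the sign changed with the member called in neither fit, so no direction is read from members that were not called. In 2 it changed with a call in 1 of the fits, both with equal totals. Of all these sign changes 64 came with a single library left out, 16 with equal totals, 13 with median ratios, 13 with array weights and 17 without the 3 libraries that stand apart. Tra2a from Luc 24 to 48 h turned to 0.11 and Srsf2 from AC 24 to 48 h to 0.43. All 170 ratios in the uninjected hearts moved by less than their propagated SD. Most of them came from leaving out 1 of 3 or 4 hearts, which moves a group mean by less than its SD. No stability is therefore read from those omissions. The cause of the changes below was not tested. For Luc 24 h against sham (5 members called), median ratios gave 2, equal totals 2 and a fit of only the groups compared 3. For Luc 48 h against sham (2), array weights gave 1, only the groups compared 0, omission of the 3 libraries that stand apart 4 and of both Luc 48 h ones 1. For AC against Luc at 48 h (3), array weights gave 5 and those omissions 1 and 0. From Luc 4 to 24 h (4), array weights gave 7, median ratios 2, only the groups compared 7 and omission of the 3 libraries 7. From AC 4 to 24 h (2), 1 was called with no filter, median ratios, equal totals, only the groups compared or no subtraction of 1, and 4 with array weights or without the 3 libraries. For the interaction from 4 to 48 h (2), a pseudocount of 0.1 or a mean of at least 5 CPM gave 1, and median ratios or either omission 0. For that from 24 to 48 h (1), array weights gave 2, no subtraction 3, and median ratios or either omission 0.

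When single libraries were left out, the counts of members called ranged from 0 to 4 (Luc 24 h against sham), 0 to 2 (Luc 48 h against sham), 2 to 4 (AC against Luc, 48 h), 2 to 4 (Luc, 4 to 24 h), 3 to 7 (Luc, 24 to 48 h), 1 to 4 (AC, 4 to 24 h), 4 to 6 (AC, 24 to 48 h), 0 to 2 (both interactions with 48 h), and stayed at 0 for Luc 4 h against sham, AC against Luc at 4 and 24 h and the interaction from 4 to 24 h. Members without overlap numbered 3 to 6 at 4 h and 6 to 8 at 24 h in the uninjected hearts.

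Deviations of same-numbered libraries correlated at −0.265 to 0.252, and those of differently numbered libraries at −0.479 to 0.536. Since deviations were taken from the means of small groups, this cannot decide whether label numbers pair the libraries. With a replicate block on these numbers, 0 members were called for Luc 48 h against sham and 0 for AC against Luc at 48 h, where calls over all genes numbered 237 rises and 21 falls, compared with 1516 and 410. The other blocked comparisons also had 0 members called.

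With 2 sham hearts and 3 to 4 hearts in other groups, small differences were not detectable. The comparisons of time, and those of 24 and 48 h hearts with sham, carry a difference in library numbering. Of these, the ones with 24 h hearts also carry a difference in the letters Br.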
